A study of Brassica napus with 48 samples.

Results

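The genes described here are the homoeologs of TRANSPARENT TESTA 8 (TT8) in rapeseed (*Brassica napus*), BnaA09g22810D on chromosome A09 and BnaC09g24870D on chromosome C09. They were taken by their gene identifiers, by a rule that uses no values, although earlier results of these data were known. They are 2 of the 101040 genes listed for this series. Rapeseed carries an A and a C subgenome, and homoeologs are the corresponding copies of a gene in each. The identifiers place the copies on their chromosomes in the AST_PRJEB5043_v1 annotation.

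TT8 is known from Arabidopsis as a basic helix-loop-helix transcription factor. It acts in a complex with the R2R3-MYB factor TT2 and the WD40 protein TTG1, and in the innermost layer of the seed coat, the endothelium, this complex switches on the late genes of proanthocyanidin synthesis. Proanthocyanidins are colourless flavonoid polymers that turn brown as the seed matures, and Arabidopsis plants that lack TT8 bear yellow seeds. TT8 also acts in anthocyanin and seed coat mucilage pathways. The seed coat is maternal tissue, so the genotype that expresses TT8 in it is that of the plant bearing the seed.

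The RNA came from whole developing seeds of field-grown spring rapeseed hybrids labelled Lumen and Solar, sown at an optimal or a delayed date. Plants stood without nets (control) or under black nets that cut incoming radiation by 75% between the start of flowering and 15 days after flowering (DAF), which lowers the source–sink (S–S) ratio. Seeds were taken at 7 and 14 DAF from 5 plants per plot and 25 siliques per plant, and seed coat, endosperm and embryo went into each library together. Genotype (G), S–S ratio (SS), sowing date (SD) and developmental time (T) gave 16 groups of 3 libraries, 48 in all.

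Levels were deposited as TPM, a measure of transcript abundance scaled by transcript length, which had been normalized between libraries and rounded to whole numbers. The sum over all genes lay between 908993 and 1219379 TPM per library, and between 51583 and 56691 genes were above 0. The number of reads behind a TPM value is unknown here, so no counting interval is given, and at the levels of TT8 rounding to 1 TPM is itself a coarse step. The genotype labels were compared with genes listed on one side only at 14 DAF after delayed sowing, 47 in the libraries labelled Solar and 51 in those labelled Lumen. The level of each gene was divided by its mean in the libraries that listed it there, and these ratios were averaged per list. Among the other 18 Lumen libraries the Solar average made up at most 1.69% of the sum of both averages. Among the other 18 libraries labelled Solar this share was at least 99% in 5, between 10.9 and 87.0% in 11, and 1.34 and 1.35% in the remaining 2. The last 2, replicate 2 of Solar control and of Solar shading at optimal sowing and 7 DAF, were also the closest of all 1128 pairs of libraries, and leaving this pair out changed 1 call on TT8, named with its result. In libraries labelled Solar the median share was 19.5% at 7 DAF and 71.4% at 14 DAF after optimal sowing. After delayed sowing it was 93.1% at 7 DAF (n = 6 each), so it differed with sowing date and age. Values from the 24 Lumen libraries alone are therefore given wherever they change a call on TT8, and comparisons of genotype refer to labels.

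Both TT8 copies were listed above 0 in all 48 libraries. The A09 copy lay between 4 and 21 TPM with a median of 7.5 TPM, and the C09 copy between 5 and 17 TPM with a median of 8 TPM. These levels ranked above 66.1% to 90.1% of all listed genes within a library for A09 and above 71.0% to 87.9% for C09. The listed genes include those at 0, of which 26899 were at 0 in all libraries, so ranks among detected genes are lower. Reads from near-identical homoeologs can be split between them in pseudo-alignment, so the sum of both copies was also examined. It lay between 10 and 38 TPM, with a median of 15 TPM.

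**Figure D1:**
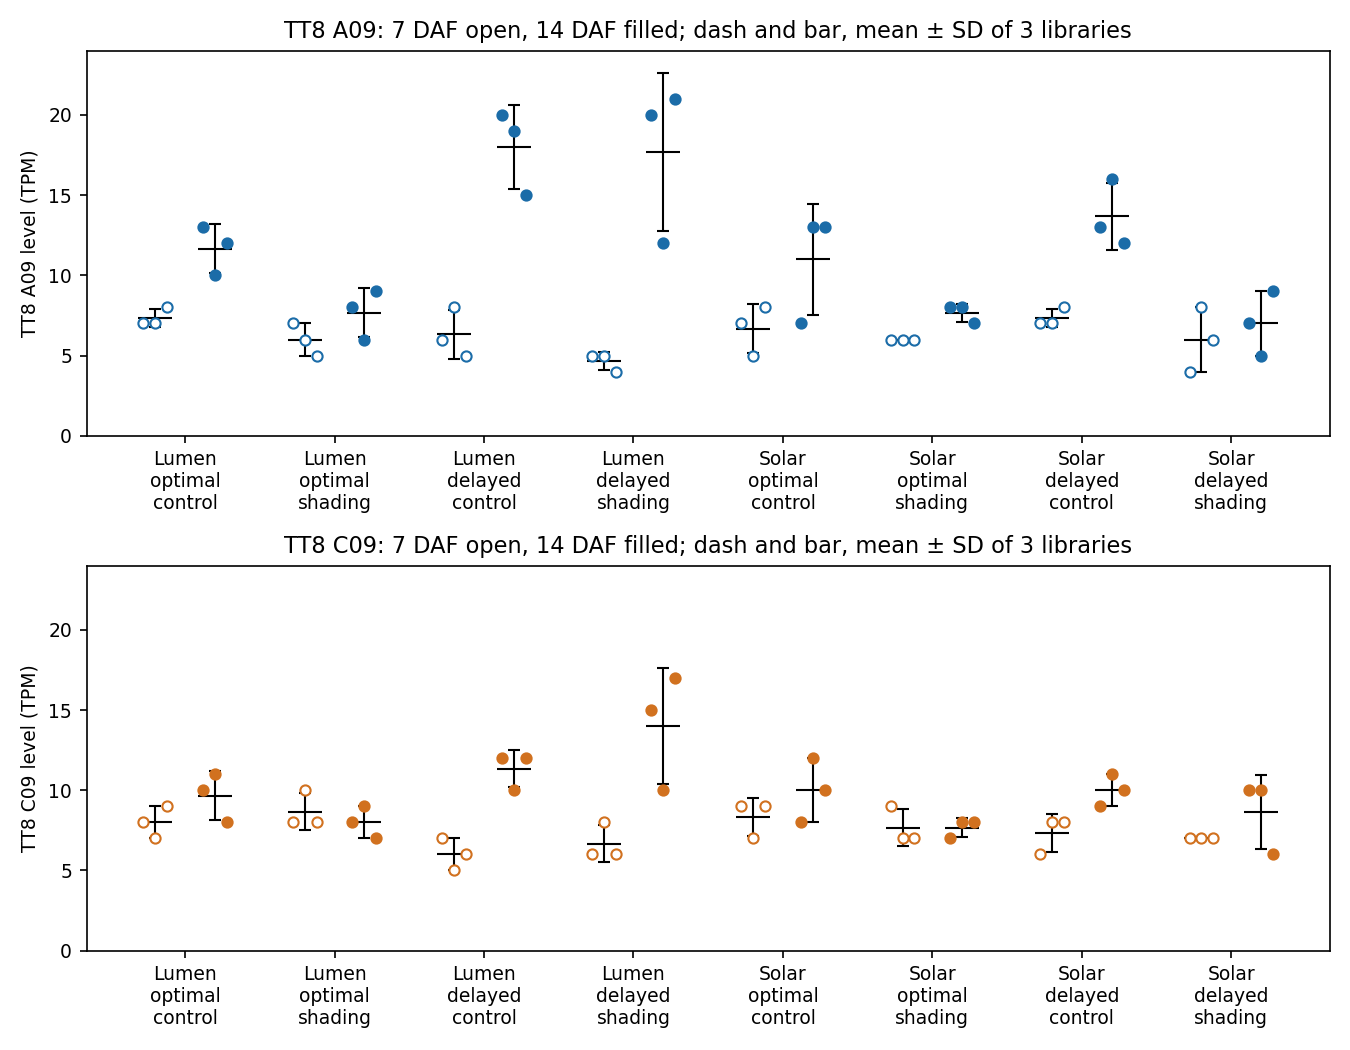
Level of each TT8 copy in TPM (vertical axes) in every library, by genotype, sowing date and S–S ratio (horizontal axis), with open points at 7 DAF and filled points at 14 DAF; dashes and bars give the mean ± SD of 3 libraries. The A09 means of the Lumen groups at 14 DAF after delayed sowing, 18.0 and 17.7 TPM, lie above all others, and no A09 library exceeds 8 TPM at 7 DAF.

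In the order of the 16 groups, the highest A09 level was 18.0 ± 2.65 TPM (SD, n = 3) in Lumen control at 14 DAF after delayed sowing. The lowest was 4.67 ± 0.577 TPM (SD, n = 3) in Lumen shading at 7 DAF after the same sowing. The 7 groups with the highest A09 means were all at 14 DAF, and the remaining 14 DAF group, Solar shading after delayed sowing, stood among those at 7 DAF. For A09, 0 of the 15 gaps between neighbouring groups exceeded the larger SD of the pair. The C09 copy covered a narrower range, from 6.0 ± 1.0 TPM (SD, n = 3) in Lumen control at 7 DAF after delayed sowing to 14.0 ± 3.61 TPM (SD, n = 3) in Lumen shading at 14 DAF after delayed sowing. For C09, 1 of the 15 gaps exceeded the larger SD, that between Lumen control and Solar control at 14 DAF after delayed sowing.

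The comparison of 14 with 7 DAF asks how TT8 changed as seeds passed from early to mid filling. Both copies rose, the A09 copy 1.72-fold and the C09 copy 1.29-fold on average over genotypes, S–S ratios and sowing dates. Over the 24 libraries at each age, A09 had a lowest, median and highest level of 4, 6 and 8 TPM at 7 DAF and of 5, 12 and 21 TPM at 14 DAF. The 2 distributions overlapped only at the low end of the later age. For C09 the same values were 5, 7 and 10 TPM at 7 DAF and 6, 10 and 17 TPM at 14 DAF, with more overlap.

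In Lumen the A09 mean was the higher at 14 DAF for each S–S ratio and sowing date. In control plants of the optimal sowing, the replicates 1, 2 and 3 read 7, 7 and 8 TPM at 7 DAF and 13, 10 and 12 TPM at 14 DAF. Under shading in that sowing they read 7, 6 and 5 TPM and then 8, 6 and 9 TPM. Only the control groups were separate, since the shaded groups overlapped between 6 and 7 TPM. After delayed sowing, controls went from 6, 8 and 5 TPM to 20, 19 and 15 TPM. Shaded plants of that sowing went from 5, 5 and 4 TPM to 20, 12 and 21 TPM. In both S–S ratios of the delayed sowing every library at 14 DAF stood above every library at 7 DAF.

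In the libraries labelled Solar the A09 mean was also the higher at 14 DAF throughout, and the interaction of G and T, -0.53 ± 0.16 log2 units in Solar relative to Lumen (SE, limma adjusted p = 0.0277), did not pass the threshold of 0.01. Controls of the optimal sowing read 7, 5 and 8 TPM at 7 DAF and 7, 13 and 13 TPM at 14 DAF. Shaded plants of that sowing read 6, 6 and 6 TPM and then 8, 8 and 7 TPM. The controls overlapped through replicate 1 at 14 DAF, and the shaded groups were separate by 1 TPM, the step of the rounding. After delayed sowing, controls read 7, 7 and 8 TPM at 7 DAF and 13, 16 and 12 TPM at 14 DAF, and shaded plants 4, 8 and 6 TPM and then 7, 5 and 9 TPM. The controls of the delayed sowing were separate and the shaded groups overlapped over most of their range.

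The C09 copy changed less with time. In Lumen at optimal sowing, controls read 8, 7 and 9 TPM at 7 DAF and 10, 11 and 8 TPM at 14 DAF, and shaded plants 8, 10 and 8 TPM and then 8, 9 and 7 TPM. In Lumen at delayed sowing, controls went from 7, 5 and 6 TPM to 12, 10 and 12 TPM and shaded plants from 6, 8 and 6 TPM to 15, 10 and 17 TPM. The groups at optimal sowing overlapped, with a slightly lower mean at 14 DAF under shading, and those at delayed sowing were separate. In Solar at optimal sowing, controls read 9, 7 and 9 TPM and then 8, 12 and 10 TPM, and shaded plants 9, 7 and 7 TPM and then 7, 8 and 8 TPM. In Solar at delayed sowing, controls went from 6, 8 and 8 TPM to 9, 11 and 10 TPM and shaded plants from 7, 7 and 7 TPM to 10, 10 and 6 TPM. Of these 4 Solar comparisons, only the controls of the delayed sowing were separate.

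In the linear model of all 4 factors and their interactions, fitted with limma to log2(TPM + 0.5) over 53810 genes, the main effect of T on A09 was 0.78 ± 0.08 log2 units (SE, Benjamini-Hochberg adjusted p = 9.42e-10). For C09 it was 0.37 ± 0.06 log2 units (SE, adjusted p = 1.56e-05 in the same limma fit), and for the summed copies 0.59 ± 0.06 (SE, adjusted p = 1.71e-10). A gene was called at an adjusted p under 0.01, and 16.7% of all genes tested were called higher at 14 DAF. The A09 mean was higher at 14 than at 7 DAF in 8 of 8 combinations of the other factors, with non-overlapping libraries in 5, and the C09 mean in TPM was higher in 6 of 8, equal in 1 and lower in 1, with non-overlapping libraries in 3. In the 24 Lumen libraries alone, where 10.8% of genes were called higher at 14 DAF, the limma effect of T was 1.05 ± 0.10 for A09 (SE, adjusted p = 3.76e-07) and 0.50 ± 0.09 for C09 (SE, adjusted p = 0.000313). In RNA from whole seeds, a larger share of cells of a type and more RNA per cell cannot be told apart.

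**Figure D2:**
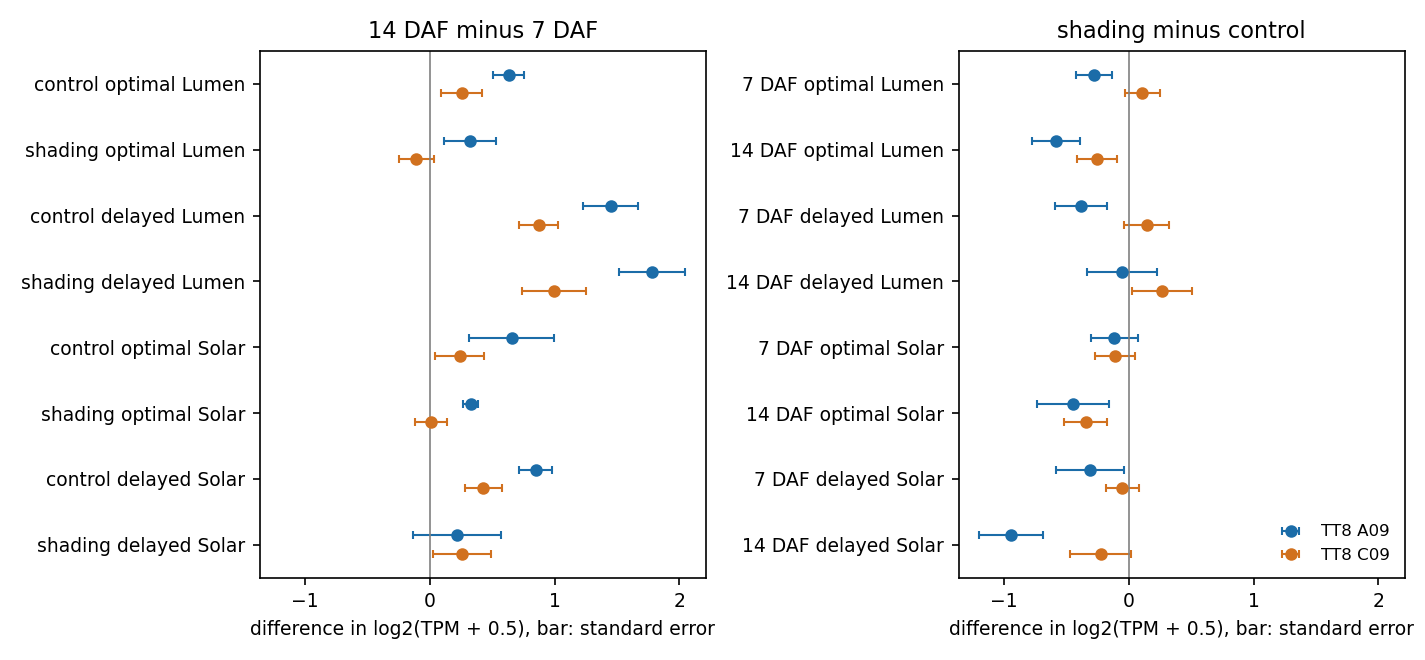
Difference in log2(TPM + 0.5) (horizontal axes) between 14 and 7 DAF (left) and between shading and control (right) for both TT8 copies within each combination of the other factors (vertical axes); points are differences of means of 3 libraries and bars their standard errors. The A09 points lie right of 0 in 8 of 8 combinations for age and left of 0 in 8 of 8 for shading, whereas 3 of 8 C09 points for shading lie right of 0.

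The comparison of shading with control asks whether a lower S–S ratio changed TT8. The A09 copy was lower under shading, at 0.763 of the control level on average, and the C09 copy did not pass the test. Over 24 libraries each, A09 had a lowest, median and highest level of 5, 8 and 20 TPM in controls and of 4, 6.5 and 21 TPM under shading. The ranges overlapped almost completely, because age and sowing date spread each of them. Within combinations of the other factors the A09 mean was lower under shading in 8 of 8, with differences between -0.943 and -0.056 log2 units. The smallest was 18.0 TPM in controls against 17.7 TPM under shading, in Lumen at 14 DAF after delayed sowing, less than the rounding step. All 3 shaded libraries stood below all 3 controls in 2 of the combinations, Lumen at optimal sowing and Solar at delayed sowing, both at 14 DAF.

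The limma main effect of SS on A09 was -0.39 ± 0.08 log2 units (SE, adjusted p = 0.000698, 53810 genes), against 3.03% of all genes called lower under shading. For C09 it was -0.06 ± 0.06 (SE, adjusted p = 0.603), with a 95% interval from -0.191 to 0.0717 log2 units. The shaded mean of C09 exceeded that of its controls in 3 of 8 combinations, and 0 of 8 had non-overlapping libraries. Summing the copies gave -0.23 ± 0.06 (SE, limma adjusted p = 0.00484), a call that was lost in Lumen alone (-0.14 ± 0.08, SE, adjusted p = 0.347). In Lumen alone, where 1.04% of genes were called lower under shading, the A09 effect kept its direction and was no longer past the threshold (-0.33 ± 0.10, SE, limma adjusted p = 0.0612). The A09 call was also lost in limma when either replicate number 1, 2 or 3 was left out as a whole (adjusted p = 0.0104, 0.0135 and 0.0263), and it was kept without any single library. Shading was set on subplots of the field design, whereas the test treats all libraries as independent.

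The sowing date comparison asks whether TT8 differed between crops sown at the optimal date and later. Neither copy passed the test of a main effect, in a series where 10.3% of genes were called higher and 10.6% lower after delayed sowing. A09 had a lowest, median and highest level of 5, 7 and 13 TPM at optimal sowing and of 4, 8 and 21 TPM at delayed sowing (n = 24 each). The medians were 1 TPM apart and the highest values 8 TPM apart, and the ranges overlapped. The limma main effect of SD was 0.18 ± 0.08 log2 units for A09 (SE, adjusted p = 0.0785) and 0.01 ± 0.06 for C09 (SE, adjusted p = 0.929). Within combinations, the delayed mean of A09 in TPM was higher than the optimal mean in 4 of 8 and equal in 1, and that of C09 higher in 3 of 8 and equal in 1. In Lumen alone the SD effect on A09 was 0.30 ± 0.10 (SE, limma adjusted p = 0.0456), and it passed the threshold only without replicate 2 of Lumen shading at 14 DAF after delayed sowing (0.36, adjusted p = 0.00719). Sowing dates were main plots of the field design, and the tests treat all libraries as independent.

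In Lumen the rise of both TT8 copies from 7 to 14 DAF was larger after delayed sowing. In Lumen controls the A09 copy rose by 0.63 ± 0.12 log2 units (SE of the difference, n = 3 and 3) at optimal sowing and by 1.45 ± 0.22 at delayed sowing. Under shading in Lumen the same rises were 0.32 ± 0.21 and 1.78 ± 0.27 log2 units. In both S–S ratios of Lumen the delayed rise was the greater by more than both standard errors. In the libraries labelled Solar this was not so, with A09 differences between the ages of 0.65 ± 0.34 at optimal and 0.85 ± 0.13 at delayed sowing in controls, and of 0.33 ± 0.06 and 0.22 ± 0.35 under shading. The interaction of T and SD measures this difference between the rises. In the Lumen libraries it was 1.14 ± 0.21 log2 units for A09 (SE, limma adjusted p = 0.00137), 0.86 ± 0.18 for C09 (SE, adjusted p = 0.00368) and 1.03 ± 0.16 for the summed copies (SE, adjusted p = 0.000386), with 9.01% of genes called in either direction. These calls were kept without each of the 24 Lumen libraries in turn, with limma adjusted p up to 0.00327 for A09 and up to 0.00817 for C09.

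Over all 48 libraries the T by SD interaction was 0.54 ± 0.13 log2 units for C09 (SE, limma adjusted p = 0.00752) and 0.59 ± 0.16 for A09 (SE, adjusted p = 0.0187), so that C09 was called and A09 was not. Of all genes, 3.19% were called in either direction. The C09 call was marginal, being lost when any 1 of 23 libraries, spread over all 16 groups, was left out (limma adjusted p = 0.0101 to 0.0134). It was also lost when replicate number 1 (0.41, adjusted p = 0.192) or 3 (0.50, adjusted p = 0.11) was left out as a whole. The A09 interaction in turn passed the threshold without replicate 2 of Lumen shading at 14 DAF after delayed sowing, at 12 TPM the lowest of its group (adjusted p = 0.00541), and without replicate 2 of Solar shading at 7 DAF after delayed sowing (adjusted p = 0.00957). For the summed copies the interaction was 0.60 ± 0.11 (SE, limma adjusted p = 0.00132) and was kept in all 48 fits that left out 1 library. Of the 11 interaction terms, 0 passed for A09 and 1 for C09, and for each copy 3 had an unadjusted p under 0.05. Of all 53810 genes, 0 were called for SS by G, for SS by SD and for each larger interaction that includes SS. The shares called were 0.771% for SS by T, 4.51% for G by T, 5.48% for G by SD and 7.81% for G by T by SD.

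Genotype asks whether TT8 differed between the libraries labelled Lumen and Solar. Averaged over the other factors neither copy did so past the threshold, with 12.6% of genes called higher and 13.6% lower in Solar. A09 had a lowest, median and highest level of 4, 8 and 21 TPM in Lumen and of 4, 7 and 16 TPM in Solar (n = 24 each), and the ranges overlapped nearly throughout. The limma main effect of G was -0.17 ± 0.08 log2 units for A09 (SE, adjusted p = 0.0959) and -0.08 ± 0.06 for C09 (SE, adjusted p = 0.385).

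The largest differences in A09 means between genotypes were at 14 DAF after delayed sowing. There the A09 libraries of Lumen shading, at 20, 12 and 21 TPM, were all above those of Solar shading, at 7, 5 and 9 TPM. Controls at that age and sowing overlapped, with 20, 19 and 15 TPM in Lumen and 13, 16 and 12 TPM in Solar. The libraries of these groups are the ones from which the label check took its genes, so their own labels are separated by construction. In a limma fit of these 12 libraries alone, a setting chosen after the data were seen in which 18.2% of genes were called, the Solar minus Lumen difference was -0.83 ± 0.18 log2 units for A09 (SE, adjusted p = 0.00654) and -0.42 ± 0.16 for C09 (SE, adjusted p = 0.0756).

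The interaction of G, T and SD asks whether the larger rise after delayed sowing differed between genotypes. Over all libraries it was -1.10 ± 0.33 log2 units for A09 (SE, limma adjusted p = 0.018) and -0.64 ± 0.26 for C09 (SE, adjusted p = 0.081), and 7.81% of genes were called for it in either direction. Neither copy passed, whereas the sum of both did, at -0.87 ± 0.23 (SE, limma adjusted p = 0.00805). The summed call was lost when any 1 of 29 libraries was left out (adjusted p = 0.0102 to 0.0146), without the closest pair of libraries (adjusted p = 0.0183), and with libraries rescaled to the same sum (adjusted p = 0.0141). A09 alone passed without any 1 of 3 libraries, replicate 2 of Lumen shading and replicate 1 of Solar control at 14 DAF, and replicate 1 of Solar shading at 7 DAF, the first and last from delayed and the second from optimal sowing (limma adjusted p = 0.00498 to 0.00597). The share of Solar genes in libraries labelled Solar differed with sowing date and age too, and its part in this interaction was not tested.

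The balance of the copies asks whether both homoeologs contributed alike. Over all libraries they did not differ beyond the spread: A09 was higher in 19 libraries, C09 in 25, and 4 were tied. The mean log2 ratio of A09 to C09, each plus 0.5 TPM, was -0.03 with an SD of 0.423 (n = 48; permutation test with 100000 random sign changes, 2-sided, p = 0.594). The balance did move with age. C09 was the higher copy in 19 of 24 libraries at 7 DAF, and A09 in 16 of 24 at 14 DAF.

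A09 supplied 45.6 ± 5.76% (SD, n = 24) of summed TT8 at 7 DAF and 53.1 ± 7.56% (SD, n = 24) at 14 DAF. The log2 ratio rose by 0.41 between the ages, in 7 of 8 combinations of the other factors (2-sided permutation test within those combinations, p = 0.00015, adjusted over the 4 factors p = 0.0006). Under shading the ratio was lower by 0.33, from 0.13 in controls to -0.20, and it was lower in 8 of 8 combinations (permutation p = 0.00081, adjusted p = 0.00162). Age and shading thus moved the balance in opposite directions. In shaded plants at 7 DAF the A09 share was 42.9 ± 5.13% and C09 was the higher copy in 11 of 12 libraries, whereas in control plants at 14 DAF the share was 56.3 ± 5.59% and A09 was the higher copy in 10 of 12 (SD, n = 12 each).

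The ratio did not pass the test for sowing date, at 0.17 log2 units higher after delayed sowing (permutation, adjusted p = 0.0962), or for genotype, at -0.10 in Solar relative to Lumen (adjusted p = 0.32). With replicate numbers left out in turn, the difference by age stayed between 0.33 and 0.52 log2 units and passed the threshold in 1 of 3 cases (permutation, adjusted p = 0.00012 to 0.0265). The difference by shading stayed between -0.40 and -0.25 and passed in 0 of 3 (adjusted p = 0.0145 to 0.0265).

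**Figure D3:**
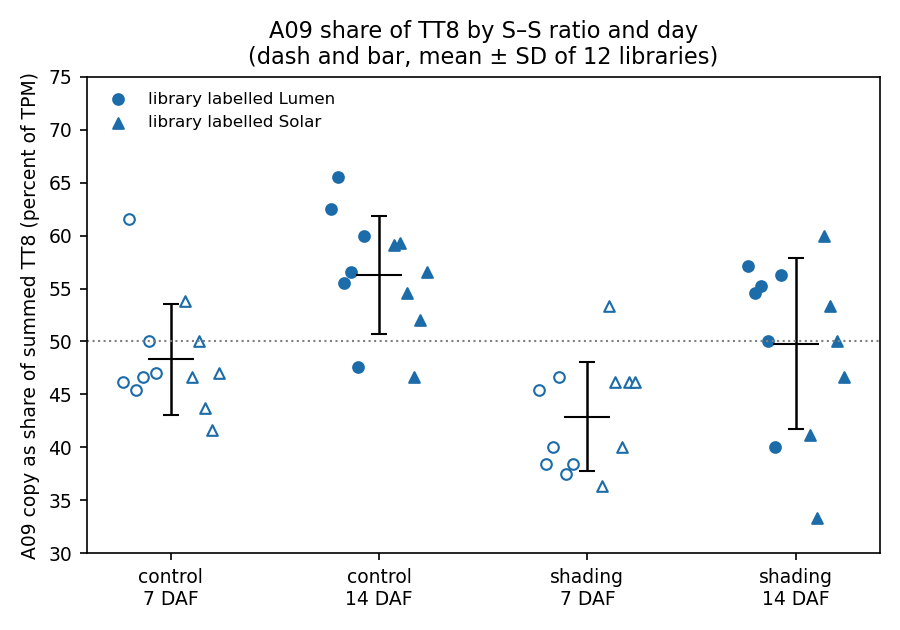
Share of the A09 copy in summed TT8, in percent of TPM (vertical axis), for 12 libraries in each combination of S–S ratio and age (horizontal axis); circles are libraries labelled Lumen, triangles those labelled Solar, open at 7 DAF and filled at 14 DAF, and dashes with bars give the mean ± SD. The mean share runs from 42.9% in shaded plants at 7 DAF to 56.3% in controls at 14 DAF, with single libraries on both sides of 50% in every combination.

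The levels of both copies went together across groups more than within them. Pearson's r between the log2 levels of A09 and C09 was 0.711 over the 48 libraries, which share their normalization, and 0.887 over the 16 group means. Over deviations from group means it fell to 0.151. Rounding to whole TPM at these levels limits what the last value can show.

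The genes of the pathway in which TT8 acts were taken from a list of 28 Arabidopsis regulators, flavonoid enzymes, transporters and mucilage genes. Through the annotation of the study's supplementary tables, 11 of the 28 could be paired with 14 rapeseed genes, all tested. The partners TT2 and TTG1 and the late enzymes DFR, LDOX and BAN, on which TT8 is known to act, are not analysed here. Those tables hold genes chosen on these same libraries as regulated or as members of co-expression networks. Of the 14, 8 stand among the regulated ones and 13 among the network genes, so neither the direction of the list nor its counts are independent evidence. The shares of all genes given beside these counts come from genes not chosen in that way. In the limma fit 13 were higher and 0 lower at 14 DAF (16.7% of all genes were higher), with a median difference of 1.25 log2 units where that of all genes was at 0. The count was 11 of 14 with libraries rescaled to the same sum and 11 of 14 in Lumen alone (10.8% of all genes), where MYB5 and FLS1 were not called (limma adjusted p = 0.246 and 0.144).

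Enzymes early in the pathway rose by up to 3.18 log2 units. Chalcone synthase (CHS), which makes the first flavonoid intermediate, had medians of 3 TPM at 7 DAF and 38 TPM at 14 DAF for BnaA03g04590D, the copy with that rise. Its copies BnaC03g06120D and BnaA10g19670D rose by 2.85 and 1.61. Chalcone isomerase (CHI, BnaC08g26020D) closes the flavanone ring and rose by 1.23, and its non-catalytic relative CHIL (BnaA10g25120D) by 1.06. Flavanone 3-hydroxylase (F3H), which leads to dihydroflavonols, rose by 1.39 for BnaA09g31780D and 1.31 for BnaC08g22640D. The smallest rises among enzymes were 0.58 in flavonoid 3'-hydroxylase (F3'H, BnaA10g23330D), which adds a hydroxyl to the B ring, and 0.34 in flavonol synthase (FLS1, BnaA10g22800D), which draws the pathway towards flavonols.

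Genes further down the pathway also rose. TT12 (BnaA07g18120D), which carries proanthocyanidin precursors into the vacuole in Arabidopsis, rose by 1.26 log2 units, from a median of 11.5 TPM to 28 TPM. TT19 (BnaA10g17440D), a glutathione S-transferase needed for the same accumulation, rose by 1.98, from a median of 10.5 TPM to 44 TPM. The rises of both TT8 copies, 0.78 and 0.37, were smaller in value, a difference between genes that was not tested. Among regulators, MYB5 (BnaC05g39780D), an R2R3-MYB factor that acts with TT2, rose by 0.82, and GL2 (BnaA07g19690D), a homeodomain factor of seed coat mucilage, by 0.51. MUM4 (BnaA05g14410D), a rhamnose synthase for mucilage, had a difference of 0.11 and was not called.

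Under shading, 8 of the 14 genes were lower and 0 higher (3.03% of all genes were lower), with a median of -0.49 log2 units. The 8 were the CHS copies, at -1.14, -1.0 and -0.88, both F3H copies, CHIL, F3'H and TT12, at -0.50. The fall of the A09 TT8 copy, -0.39, lay nearer to 0 than each of these, and CHI, at -0.32, did not pass the limma test (adjusted p = 0.0269). MYB5, GL2, FLS1, TT19 and MUM4 were not called either. In Lumen alone 3 of the 14 were lower, F3'H, TT12 and CHIL, against 1.04% of all genes. The falls of the 8 were averages and did not hold in every group. In Lumen at 14 DAF after delayed sowing, shaded means were higher for the CHS and F3H copies, CHIL and TT12, and lower for F3'H. There CHS BnaA10g19670D had 454 ± 171 TPM in controls and 552 ± 289 TPM under shading (SD, n = 3 each). In Solar at 7 DAF after optimal sowing, shaded means were equal for CHS BnaA03g04590D and higher for the rest of the 8.

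After delayed sowing 9 of the 14 were higher (10.3% of all genes) and 1, MUM4, was lower (10.6%), whereas neither TT8 copy was called. The CHS copies differed by 0.97 to 1.5 log2 units on average. The G by SD interaction, the difference of that effect between Solar and Lumen, was negative and called for 7 of the 14, against 3.14% of all genes called lower. These were the CHS copies, at -2.46 (BnaA03g04590D), -1.92 (BnaA10g19670D) and -2.1 (BnaC03g06120D), CHI, CHIL and both F3H copies. For TT8 the same term was -0.23 for A09 and -0.09 for C09, neither called (limma adjusted p = 0.393 and 0.704). The share of Solar genes in libraries labelled Solar differed with sowing date too, and its part in terms of G with SD was not tested. In Lumen alone the SD effect on the CHS copies was 1.93 to 2.56, 9 of the 14 were higher (6.49% of all genes), and MUM4 was not called (adjusted p = 0.0227). Between genotypes, 2 of the 14 were higher in Solar (12.6% of all genes), MYB5 by 1.14 and TT19 by 2.21, and 4 were lower (13.6%). The T by SD interaction was called in Lumen for 5 of the 14, against 9.01% of genes. It was positive, as for TT8, in CHI at 1.26 and in F3H at 1.40 (BnaA09g31780D) and 1.19 (BnaC08g22640D), and negative in F3'H at -0.91 and FLS1 at -1.62. In all libraries it was called for 1 of the 14, CHIL at 0.69, against 3.19% of genes. The G by T by SD interaction was called for 2, F3'H at 1.78 and FLS1 at 1.92, against 7.81% of genes. Both values were positive, whereas this term was negative for TT8.

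**Figure D4:**
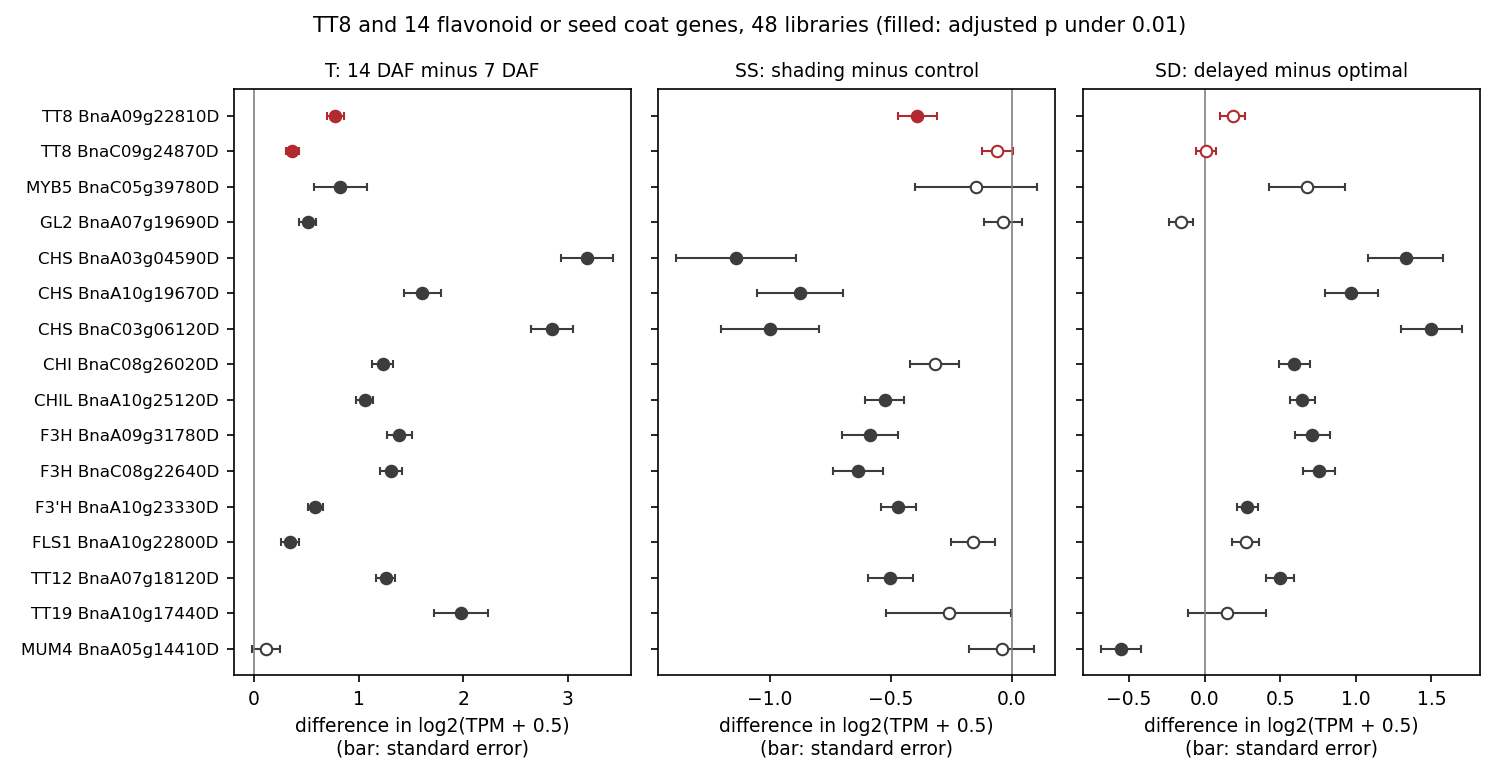
Main effects of developmental time, S–S ratio and sowing date (horizontal axes, difference in log2(TPM + 0.5) with standard error) on both TT8 copies, in red, and 14 flavonoid or seed coat genes (vertical axis) over 48 libraries, filled where the limma adjusted p was under 0.01. All genes except MUM4 are filled and right of 0 for time, and 8 of the 14 genes as well as the A09 copy are filled and left of 0 for shading.

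To describe which genes had a pattern most like that of TT8, the mean log2 level of both copies was correlated over the 48 libraries with 29101 tested genes of at least 5 TPM on average. The libraries share their groups and normalization, so r is a description. The 10 most alike had r between 0.909 and 0.925. The first, BnaA03g17700D, had a mean of 0.792 TPM at 7 DAF and 42.3 TPM at 14 DAF. It was followed by BnaA01g34840D (r = 0.923), BnaC07g37670D (r = 0.921), BnaA03g49010D (r = 0.917) and BnaC04g51090D (r = 0.914). The remaining 5 were BnaA08g27280D, BnaA02g30470D, BnaC05g07900D, BnaC04g41390D and BnaC06g21080D, the last annotated as a plant peroxidase and the only one of the 10 with an annotation in the study's tables.

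All 10 were higher at 14 DAF, by 0.73 to 3.88 log2 units (16.7% of all genes were called higher). They were chosen for a high r with TT8, which itself rose, so this is no separate result. The same holds for r over subsets or means of the same libraries. Over the 24 Lumen libraries their r with TT8 was 0.925 to 0.960 and over the 16 group means 0.937 to 0.978. Over deviations from group means it was 0.523 to 0.774. Pathway genes ranked below these 10, with F3H BnaA09g31780D at r = 0.871 (rank 70), CHI BnaC08g26020D at 0.861 (rank 94) and F3H BnaC08g22640D at 0.858 (rank 108). CHS BnaA03g04590D followed at 0.817 and TT12 at 0.806. CHIL, the other CHS copies and GL2 came next, from 0.793 down to 0.621. TT19 stood at 0.464, F3'H at 0.412, MYB5 at 0.181 and FLS1 at -0.08.

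Markers of seed tissues were summed per library to show what else moved with TT8. The endothelium was represented by TT12 and TT19, whose summed level had a lowest, median and highest value of 8, 20.5 and 56 TPM at 7 DAF and of 12, 72 and 186 TPM at 14 DAF. Epidermal markers (GL2 and MUM4) had 7, 14 and 18 TPM and then 10, 18 and 28 TPM. The endothelial median was also 47 TPM in controls and 35 TPM under shading, and 35.5 TPM at optimal and 51.5 TPM at delayed sowing. In these 3 comparisons the endothelial median differed in the same direction as that of A09, with overlapping ranges. Sowing date was not called for A09. By genotype the endothelial median went the other way, at 21 TPM in Lumen and 50 TPM in Solar, where A09 had medians of 8 and 7 TPM. The markers differed here. TT19 had medians of 10 TPM in Lumen and 35.5 TPM in Solar, whereas TT12 had 15.5 and 15 TPM. The part of the endothelial markers in these differences was not tested. The only embryo storage gene matched, an oleosin, was at 0 in all 24 libraries at 7 DAF and at a median of 0 and a highest value of 14 TPM at 14 DAF.

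Green tissue, shown by 3 Rubisco small subunit genes, had a median of 255 TPM at 7 DAF and 174.5 TPM at 14 DAF. By S–S ratio this median was 186 TPM in controls and 254 TPM under shading, and by sowing date 272.5 TPM at optimal and 177.5 TPM at delayed sowing. It was therefore higher where the A09 median was lower in these 3 comparisons. By genotype both medians were higher in Lumen, at 243.5 against 198.5 TPM for green tissue and 8 against 7 TPM for A09. The part of green tissue in these differences was not tested. Genes of the silique wall (3 SHATTERPROOF genes, which the seed coat also expresses) had medians of 50 TPM at 7 DAF and 54.5 TPM at 14 DAF and of 51.5 TPM in controls and 50 TPM under shading. Of 28 marker genes in Arabidopsis, 8 could be paired with 11 rapeseed genes, and markers of the endosperm are not analysed here.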

How the data were processed

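The deposited table held TPM for 101040 genes in 48 libraries. Following the methods of the study and the submitters' processing notes, the authors pseudo-aligned reads with kallisto 0.46 to the AST_PRJEB5043_v1 transcriptome, normalized TPM between libraries with sleuth and rounded them to whole numbers, so the deposited values were treated as a rounded score and no count test was applied. TPM keeps no read number, so depth and counting error are unknown, and fold changes on the log2(TPM + 0.5) scale understate the change of low genes.

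Samples were grouped by their titles. Genes listed at 1 TPM or more in 47% or more of the libraries were fitted with limma 3.58.1 in R 4.3.3 (mean-variance trend, 4 factors with all interactions, Benjamini-Hochberg adjustment over all genes tested, threshold 0.01). Replicates were field plots of a split-split plot design, which neither the fit nor the permutation test below models. The ratio of the copies was tested by 100000 permutations within the 8 combinations of the other factors, with the same threshold, in Python 3.11.15. Both tests were tested on simulated data.

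Both copies, every matched pathway gene and the 10 genes most correlated with TT8 (mean of at least 5 TPM) were named. The members and lists were chosen with earlier results of these data known. The name TT8 was given with the identifiers, since neither is annotated in the readable supplementary tables. No genome or sequence of the build used was at hand, so no sequence is shown. Alternatives were the pseudocount, the filter, the scaling, the trend, a replicate block, summed copies, Lumen alone and libraries or replicate numbers left out.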

Additional observations from a re-analysis of the deposited data

Results flagged for a closer look

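The difference between sowing dates in the rise of TT8 from 7 to 14 DAF was tested as an interaction and passed the threshold (limma, Benjamini-Hochberg adjusted p under 0.01) for C09 over all 48 libraries, at 0.54 log2 units. In the Lumen libraries it passed for A09, at 1.14 log2 units, for C09, at 0.86, and for the summed copies, at 1.03. The summed copies over all libraries passed as well, at 0.60. In each case the rise, averaged over the libraries of that test, was the larger after delayed sowing.

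The same difference was itself compared between genotypes. For the summed copies it was smaller in the libraries labelled Solar than in Lumen, by an interaction of -0.87 log2 units that passed the threshold. Of all genes, 7.81% were called for this term and 0 for each other term of 3 factors. The summed call was lost when any 1 of 29 libraries was left out. Doubts about the labels of Solar libraries stand beside the value of -0.87, and their part in it was not tested.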

How the results depend on the processing

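Calls on main effects of both copies kept their direction and side of the threshold under other pseudocounts, filters, scalings and without the trend, except that the sign of the C09 sowing date effect, near 0 throughout, turned to -0.080 with libraries rescaled to the same sum, to -0.015 with quantile normalization and to -0.012 without the closest pair of libraries. Rescaling to the same sum left 0 C09 interactions called, and the summed G by T by SD term at -0.78 and not called. Summing the copies gave 2 called interactions, and a called effect of shading of -0.23 for both together. In Lumen alone the A09 effect of shading was -0.33 and not called, that of C09 turned to 0.065, 1 A09 interaction was called, 3 pathway genes were lower under shading, and the mean log2 ratio of the copies turned to 0.016. At 14 DAF after delayed sowing alone, a setting added later, the A09 genotype difference was called at -0.83.

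With 1 library or replicate number left out, A09 ranged from 0.73 to 0.85 for time, -0.43 to -0.34 for shading, 0.13 to 0.23 for sowing date and -0.24 to -0.062 for genotype, with 0 to 2 interactions called. C09 ranged from 0.33 to 0.40 for time, -0.088 to -0.0038 for shading, -0.0094 to 0.038 for sowing date and -0.12 to -0.046 for genotype, with 0 to 1 interactions called. The log2 ratio of the copies ranged from 0.33 to 0.52 by time, -0.40 to -0.25 by shading, 0.097 to 0.23 by sowing date, -0.17 to -0.017 by genotype and -0.06 to -0.012 overall. Calls lost or gained among these stand beside their results above, and the causes were not tested.

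Same-numbered libraries of the 2 ages did not deviate together (mean r = -0.009 over 24 pairs, 1 above 0.1), so the numbers were not taken as pairs. A replicate block changed no call: time 0.78 for A09 and 0.37 for C09, shading -0.39 for A09. The main limits are whole-number TPM at low levels, unknown depth, libraries labelled Solar in which genes of Lumen prevail, and 3 libraries per group.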
